A study of Caenorhabditis elegans with 2 samples.

Results

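The peaks of 2 cohesin subunits, SCC-1 and COH-1, of Caenorhabditis elegans were compared as 2 deposited lists of genomic intervals. All 18081 deposited peaks of the series entered: 6780 SCC-1 peaks and 11301 COH-1 peaks. A peak was called shared when it had at least 1 bp in common with a peak of the other list, and otherwise SCC-1-only or COH-1-only. SCC-1 was mapped by chromatin immunoprecipitation and sequencing (ChIP-seq) in fem-2(b245) hermaphrodites grown at 20 °C, in 1 ChIP library with 1 library of input DNA. The gene fem-2 encodes a phosphatase of the sex-determination pathway, and every library of the series carries its b245 allele. By label the animals were young adults that contain a germline, although the protocol for growth speaks of gravid ones. Whole worms were ground, so cell types cannot be told apart.

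No sample label of the series ties the COH-1 list to a library. Its peak names carry the target tag COH1 and another antibody code, beside the tags FEM2 and AD that also stand in the titles of the SCC-1 libraries. Its animals, depth and controls are otherwise unknown. Each side of the comparison is 1 list without a replicate, and no read counts were analysed here, so the depth is unknown on either side. The 2 lists were also called differently: the records name MACS for SCC-1 and MACS v2 for COH-1. A difference between the lists in number, width or score cannot be told apart from a difference in calling or depth. Intervals given below are exact (Clopper-Pearson) 95% binomial intervals. They reflect counting error alone and take each peak as independent, although peaks cluster.

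Cohesin is a ring of 2 SMC proteins closed by a kleisin subunit, and it holds sister chromatids together and folds interphase chromosomes into loops. Worms have several kleisins. SCC-1 serves mitotic divisions, COH-1 is its paralogue in somatic tissues, and REC-8 and the related COH-3 and COH-4 act in meiosis. In somatic cells of hermaphrodites, the X chromosome is bound along its length by a condensin-based dosage compensation complex that lowers its transcription. Autosomal centres are rich in genes, and autosomal arms are richer in repeats.

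COH-1 peaks were more numerous than SCC-1 peaks but much narrower. The median width was 298 bp for COH-1, with quartiles of 200 and 514 bp, and 1219.5 bp for SCC-1, with quartiles of 862 and 2001 bp. COH-1 peaks covered 5.72 Mb, which is 5.70% of the summed chromosome spans of 100.3 Mb, and SCC-1 peaks covered 11.9 Mb, or 11.8%. The widest COH-1 peak, 23680 bp, exceeded the widest SCC-1 peak, 16522 bp. Only 59 COH-1 peaks were 5 kb or wider, against 303 SCC-1 peaks. COH-1 peaks came in close groups: 45.2% of the gaps between neighbouring COH-1 peaks were 500 bp or shorter, against 17.7% for SCC-1, and the median gaps were 600 and 3736 bp.

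About 1 in 4 peaks of each list met the other list. Of the 6780 SCC-1 peaks, 1730 were shared, or 25.5% (24.5% to 26.6%), and 5050 were SCC-1-only. Of the 11301 COH-1 peaks, 3007 were shared, or 26.6% (25.8% to 27.4%), and 8294 were COH-1-only. The shared stretches summed to 1480 kb, which was 12.5% of the length covered by SCC-1 peaks, 25.9% of that covered by COH-1 peaks and 9.18% of the union of both. Overlaps had a median of 299 bp, and 70.7% of the shared COH-1 peaks lay whole inside an SCC-1 peak. Of the shared SCC-1 peaks, 1054 met 1 COH-1 peak and 676 met several, whereas 2931 of the shared COH-1 peaks met 1 SCC-1 peak and 76 met several.

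To show how much overlap the number, width and spacing of the peaks give, the COH-1 list was shifted in a circle along each chromosome by 1% to 99% of its span, in 99 steps. The shifted lists met 14.5% of the SCC-1 peaks on average, with a lowest value of 12.5% and a highest of 16.3%. The observed 25.5% was 1.77 times the mean of the shifts (1.69 to 1.84) and lay above all 99. From the COH-1 side the shifted lists met 14.7% on average, and the observed 26.6% was 1.81 times that. In shared length the factor was larger, 2.21, with 1480 kb observed against 670 kb on average and 829.5 kb in the highest shift. Long shifts carry peaks of a chromosome's centre onto its arms. Shorter offsets of 20, 50 and 100 kb in each direction, added after the data had been seen, met 15.7% of the SCC-1 peaks on average, so that the observed share was 1.63 times this local level.

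On the X chromosome the lists departed from the autosomes in opposite directions. X makes up 17.7% of the span and held 7.49% of the SCC-1 peaks (6.88% to 8.15%) but 21.6% of the COH-1 peaks (20.9% to 22.4%). SCC-1 peaks were 0.378 times as dense on X as on the autosomes (0.344 to 0.413), whereas COH-1 peaks were 1.29 times as dense (1.23 to 1.34). COH-1 density on X, 137.9 peaks per Mb, was about that of chromosome III, 138.0 per Mb, and above that of chromosomes I, II, IV and V, which ran from 84.4 to 117.4 per Mb. The COH-1 peaks of X did not stand apart in size or score, with a median width of 307 bp against 296 bp on the autosomes and a median score of 5.05 against 5.03.

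**Figure D1:**
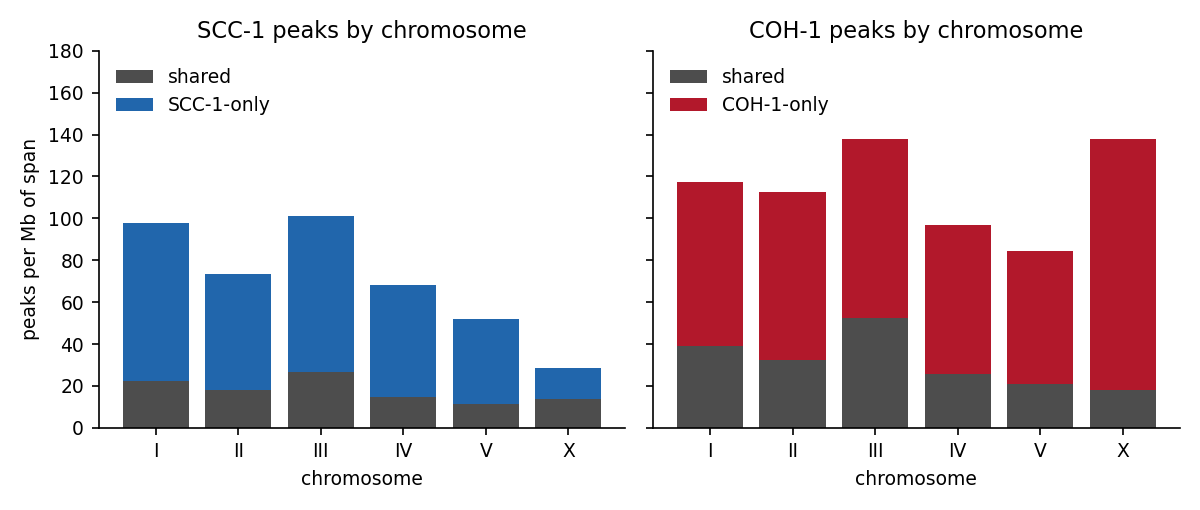
Peaks per Mb of chromosome span for SCC-1 (left) and COH-1 (right), with shared peaks in grey and peaks of 1 list alone in colour. X had the lowest SCC-1 bar, 28.7 per Mb, and a COH-1 bar of 137.9 per Mb, level with chromosome III.

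SCC-1 peaks on X met COH-1 far more often than those on any autosome. On X 247 of 508 SCC-1 peaks were shared, or 48.6% (44.2% to 53.1%). On the autosomes 1483 of 6272 were shared, or 23.6% (22.6% to 24.7%), and the single autosomes ran only from 21.9% on chromosome IV to 26.4% on chromosome III. The shifted lists met nearly the same share in both places, 15.7% on X and 14.3% on the autosomes, although COH-1 is denser on X. The observed share was therefore 3.10 times the shifts on X (2.82 to 3.38) and 1.65 times on the autosomes (1.57 to 1.72). Among single autosomes the factor ran from 1.49 on chromosome I to 1.99 on chromosome V. With the short offsets the local level was 14.9% on X and 15.8% on the autosomes, and the factor on X was 3.26. From the COH-1 side the order of the shares turned, with 13.1% of X peaks shared and 30.4% of autosomal ones and an SCC-1 density on X of 28.7 against 76.0 per Mb. Against the shifts the factor was again higher on X, 2.75 against 1.74.

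**Figure D2:**
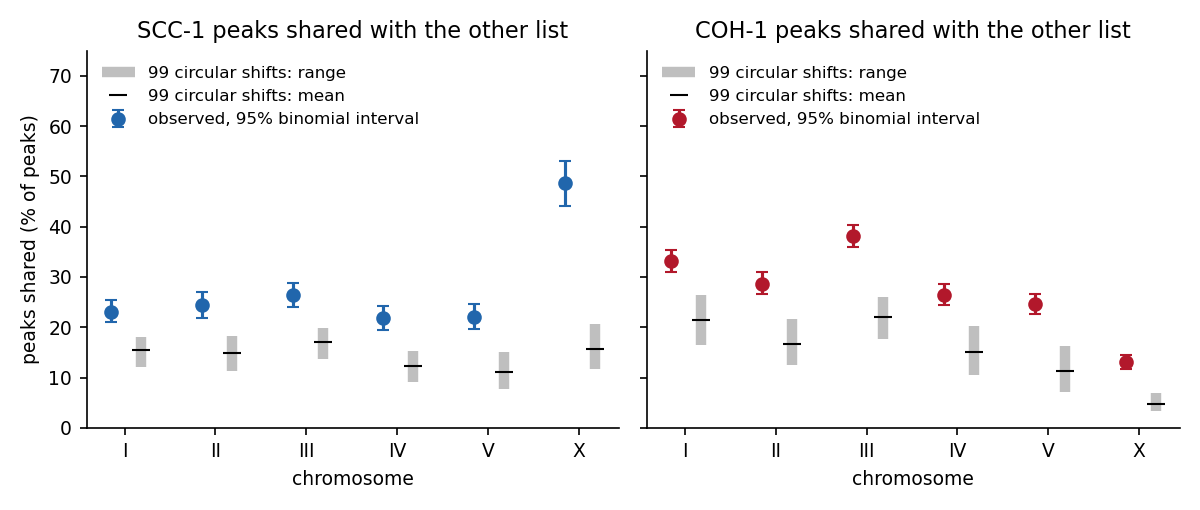
Percent of SCC-1 peaks (left) and COH-1 peaks (right) shared with the other list on each chromosome. Points are observed values with 95% binomial intervals, and grey bars and black ticks are the range and mean of 99 circular shifts; every observed value lay above its bar, with X at 48.6% for SCC-1.

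In make-up, the 3 classes of peaks differed by chromosome. X held 14.3% of the shared SCC-1 peaks (12.7% to 16.0%), 5.17% of the SCC-1-only peaks (4.57% to 5.82%) and 25.6% of the COH-1-only peaks (24.7% to 26.6%). Relative to the autosomes, shared SCC-1 peaks were 0.776 times as dense on X (0.676 to 0.889), SCC-1-only peaks 0.254 times (0.223 to 0.288) and COH-1-only peaks 1.61 times (1.53 to 1.69). SCC-1-only peaks stood at 14.7 per Mb on X against 58.0 on the autosomes, and shared SCC-1 peaks at 13.9 against 17.96 per Mb. The deficit on X thus lay mainly in the SCC-1-only class. That class held 76.4% of the SCC-1 peaks on the autosomes and 51.4% on X, so an even loss would also fall mainly there. Shared SCC-1 peaks lie at COH-1 peaks by definition, and COH-1 was 1.29 times as dense on X. Chromosome III had the highest density of shared SCC-1 peaks, 26.7 per Mb, and chromosome V the lowest, 11.5 per Mb.

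Small displacements lowered the overlap more on X than on the autosomes. SCC-1 peaks of X are narrower, with a median width of 817 bp against 1254 bp, so a given move clears more of an X peak, and the part of width in the difference was not tested. On X the share of SCC-1 peaks met was 48.6% in place, 48.2% at 0.25 kb, 41.3% at 0.5 kb and 28.4% at 1 kb, as means of moves to the left and right. It reached 15.8% at 20 kb. On the autosomes the decline was shallow, from 23.6% in place to 20.5% at 1 kb, 18.1% at 5 kb and 15.7% at 20 kb. At 50 kb X and the autosomes lay at 15.9% and 15.8%, and at 100 kb at 12.9% and 15.8%. COH-1 midpoints inside SCC-1 peaks leaned to the middle of the peak: 55.3% of 2655 lay in the inner 50% of the peak (53.4% to 57.2%), against 49.9% on average and 52.7% at most in the shifts.

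**Figure D3:**
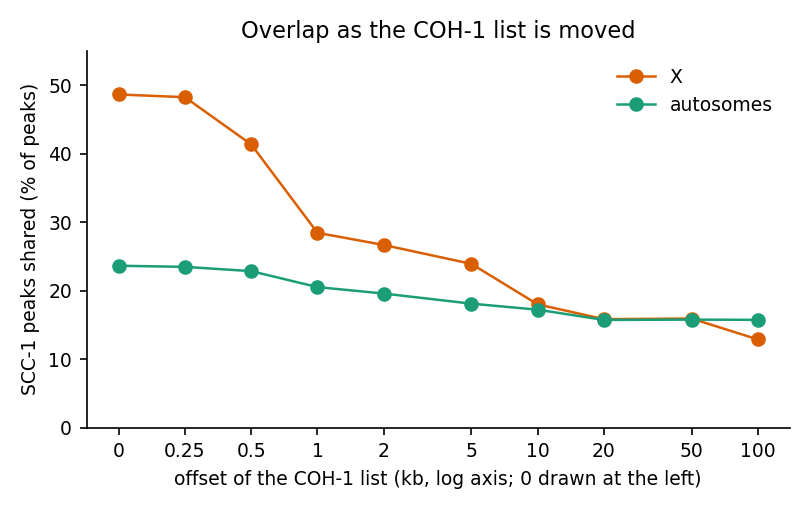
Percent of SCC-1 peaks met by the COH-1 list after it was moved by the offset on the horizontal axis (kb, log scale), as the mean of both directions, for X and for the autosomes. The X curve starts at 48.6% and drops to 28.4% by 1 kb, and both curves lie near 16% from 20 to 50 kb, with X at 12.9% at 100 kb.

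Along the autosomes, COH-1 peaks of either kind and shared SCC-1 peaks gathered in the centres, and SCC-1-only peaks were spread nearly evenly. Here the arms are the 25% of a span nearest to each end. The ratio of density in arms to density in centres was 0.423 for shared SCC-1 peaks (0.378 to 0.474), 0.422 for COH-1-only peaks (0.399 to 0.445) and 0.940 for SCC-1-only peaks (0.888 to 0.996). For all SCC-1 peaks together the ratio was 0.787, and for all COH-1 peaks 0.400. A shared SCC-1 peak lies at a COH-1 peak by definition, so its class takes on part of the COH-1 distribution. SCC-1-only peaks are the remainder. The split thus favours a lower ratio for shared SCC-1 peaks, and each autosome gave them one below its own SCC-1-only ratio. Chromosome V had the lowest values, 0.217 for shared SCC-1 peaks and 0.253 for COH-1-only peaks. COH-1-only peaks stood at 44.3 per Mb in the autosomal arms and 105.1 in the centres.

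On X the classes ran differently. COH-1-only peaks were still denser in the centre, with a ratio of 0.732 (0.671 to 0.799), though it was 0.969 (0.886 to 1.06) when the arms were taken as 33% of the span. SCC-1-only peaks were denser in the arms, with a ratio of 2.11 (1.62 to 2.77), and shared SCC-1 peaks had a ratio of 1.17 whose interval, 0.902 to 1.51, held 1. The first 10% of X accounted for much of the SCC-1-only value, with 53.1 SCC-1-only peaks per Mb, against values between 7.90 and 14.1 in the other parts of 10%. In the leftmost 1.5 Mb of X, a window known to be dense from the same list, 26 of 118 SCC-1 peaks were shared, or 22.0% (14.9% to 30.6%). The shifts met 15.5% of them on average, and 16 of 99 met at least as many, whereas the offsets of 20 to 100 kb met 8.47%, a factor of 2.60. Beyond it 221 of 390 were shared, or 56.7% (51.6% to 61.6%), with factors of 3.60 and 3.37.

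**Figure D4:**
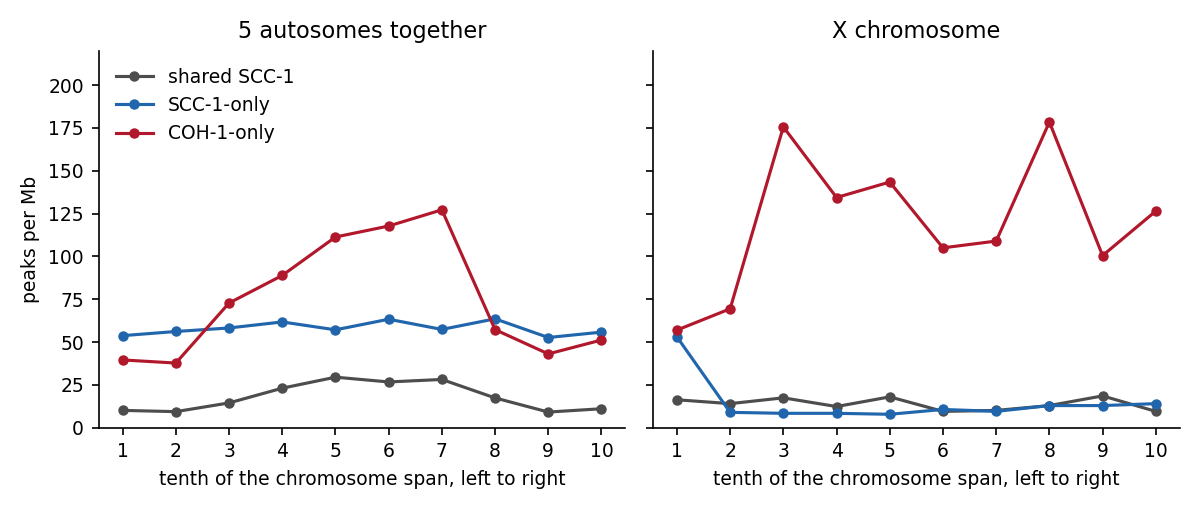
Peaks per Mb in 10 equal parts of the chromosome span, left to right, for shared SCC-1, SCC-1-only and COH-1-only peaks on the 5 autosomes together (left) and on X (right). COH-1-only peaks form a central hump on the autosomes up to 127.2 per Mb, SCC-1-only peaks are level there, and on X SCC-1-only peaks are high only in the first part, at 53.1 per Mb.

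The share of SCC-1 peaks that met COH-1 followed the same axis. In the autosomal centres 29.7% of SCC-1 peaks were shared (28.2% to 31.2%) and in the arms 16.0% (14.6% to 17.4%). How far this exceeded displaced lists depended on the displacement. Against the circular shifts, the factor was 2.02 in the centres and 1.15 in the arms, where 29 of 99 shifts met at least as many peaks. Against the offsets of 20 to 100 kb, which keep COH-1 peaks in their own region, the order turned, with factors of 1.42 in the centres and 1.74 in the arms. The local level was 20.9% in the centres and 9.18% in the arms. On X the factors were 2.74 in the arms and 3.65 in the centre against the shifts, and 3.33 and 3.20 against the short offsets.

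In full 1 Mb windows, the numbers of SCC-1 and COH-1 peaks went together on the autosomes (Spearman's rho = 0.63 over 80 windows) and not on X (rho = -0.05 over 17 windows). These values describe windows that share their chromosome and any regional difference in mapping, and carry no test. The windows that follow include those cut short by the end of a chromosome. Among autosomal windows with at least 20 SCC-1 peaks, of which there were 84, the shared percentage ran from 0% to 43.8%, with a median of 22.4%. The 15 such windows of X ran from 14.5% to 76.5%, with a median of 51.9%. Beyond its first 2 Mb, all 16 windows of X, whatever their number of SCC-1 peaks, lay between 36.4% and 76.5%. The highest value of the 99 windows with at least 20 SCC-1 peaks was on X from 4 to 5 Mb. There 26 of 34 SCC-1 peaks were shared among 233 COH-1 peaks. The lowest was on chromosome V from 18 to 19 Mb, where none of 40 SCC-1 peaks was shared (interval up to 8.81%) and 9 COH-1 peaks were called.

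Shared SCC-1 peaks were wider and had higher deposited scores than SCC-1-only peaks. The median width was 1517 bp for shared and 1157 bp for SCC-1-only peaks, and the median score was 949.8 and 403. The scale of the authors' scores is not named, and they were used only within a list. Among SCC-1 peaks ranked by score into 4 classes of 25%, 19.9% were shared in the lowest, 19.9% in the next, 24.6% in the third and 37.6% in the highest. A wide peak meets more of any list, and the shifts were higher too, going from 12.0% in the lowest class to 18.1% in the highest. The factor over the shifts was 1.66, 1.53, 1.67 and 2.08 in turn. By width the share went from 19.8% in the narrowest class to 38.6% in the widest, with factors of 1.71 and 1.98. Among the 303 SCC-1 peaks of 5 kb or wider, 154 were shared, or 50.8%, with 25.7% in the shifts. The differences in median width and score depended on what counted as shared. When at least 50% of both peaks had to overlap, shared SCC-1 peaks differed from the others by -180 bp in median width and -225.3 in median score. That rule admits only pairs of like width, and so favours narrow SCC-1 peaks by construction. With the SCC-1 midpoint inside a COH-1 peak the differences were -82 bp and -9.68. Their intervals, -142 to 10 bp and -92.64 to 76.53, took in both signs, so that rule showed no clear difference in either direction. These intervals of a difference of medians are not binomial.

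**Figure D5:**
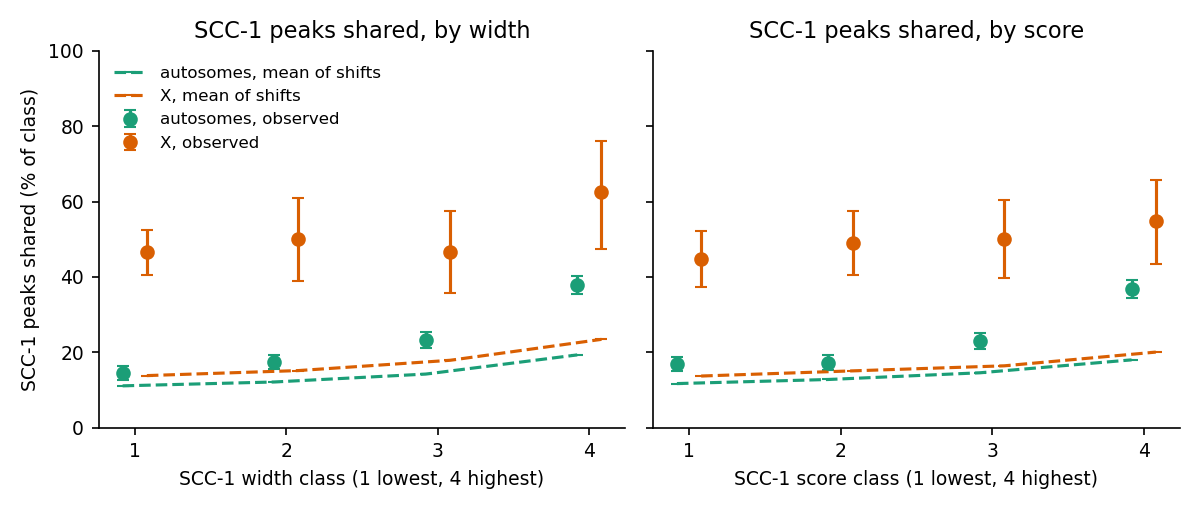
Percent of SCC-1 peaks shared with COH-1 in 4 classes of width (left) and of deposited score (right), for autosomes and X, with 95% binomial intervals; dashed lines are the means of 99 circular shifts. X values lie between 44.8% and 62.5% in every class, and autosomal values go up to 37.9% in the widest class and 36.7% in the class of highest score.

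The higher share on X was present in every width and score class. X shares were 46.5% in the narrowest and 62.5% in the widest class, where only 48 peaks lay on X, and 44.8% and 54.8% in the lowest and highest score classes. On the autosomes the corresponding shares were 14.4% and 37.9% by width, and 16.9% and 36.7% by score. In the narrowest class X peaks were shared 3.36 times as often as in the shifts (2.93 to 3.79), and autosomal peaks 1.29 times (1.13 to 1.47). Shared and SCC-1-only peaks of X were nearly alike in width, with medians of 831 and 801 bp, whereas on the autosomes the medians were 1679 and 1176 bp.

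COH-1 peaks showed the same order by score. The median score was 5.82 for shared and 4.85 for COH-1-only peaks, and the median width 335 and 287 bp. The share met by SCC-1 was 21.5% in the lowest score class and 36.1% in the highest, against 13.3% and 17.3% in the shifts. Among the 295 COH-1 peaks that were in the highest score class but no wider than the list median, 137 were shared, or 46.4% (40.6% to 52.3%), with a factor of 3.37. Of the 2526 wider ones in that class 34.9% were shared, with a factor of 1.97. The SCC-1 peaks of the highest score class that were no wider than their list median had 26.0% shared, with a factor of 2.13. On X the share of COH-1 peaks met went from 7.13% in the lowest score class to 24.1% in the highest. The shifts there gave 4.09% and 6.25%. On the autosomes the share went from 25.5% to 39.6%, against 15.8% and 20.5% in the shifts. Between partners the ranks hardly went together: over the 1730 shared SCC-1 peaks, Spearman's rho of the SCC-1 score with the highest score among the COH-1 peaks met was 0.05. It was 0.06 over the 1483 on the autosomes and 0.16 over the 247 on X, all given as a description across peaks. Ties at the SCC-1 score of 3100 entered these ranks.

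Single sites illustrate the classes, with positions on WS220. The SCC-1 peak with the highest printed score, 3228, on chromosome IV from 5085018 to 5087873, met 2 COH-1 peaks. The next highest shared SCC-1 peaks lay on chromosome I from 3732282 to 3735064 and on chromosome II from 14398431 to 14401322. Scores did not settle the class, because SCC-1 peaks with scores of 3221, 3219 and 3219 met no COH-1 peak. These lay on chromosome I from 6626248 to 6627362 and from 10719868 to 10720767, and on chromosome III from 12382398 to 12383498. Another 1182 SCC-1 peaks share the score 3100, which gives them no order. The scale is not named and 3100 may be a fixed value, so whether they rank below the peaks named above is unknown. Of the 1239 SCC-1 peaks with a score of 3100 or more, 479 were shared. The widest SCC-1 peak, 16522 bp on chromosome II from 11964429, met 5 COH-1 peaks, and the widest SCC-1-only peak, 16027 bp on the same chromosome from 11104971, by definition met none.

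The highest COH-1 score, 115.7, belonged to a peak of 9363 bp on chromosome III from 12610311 to 12619673, which met 4 SCC-1 peaks. A peak of 5097 bp on X from 4136623 to 4141719 also met 4. The COH-1 peaks that followed in score among shared ones were a narrow one of 368 bp on chromosome V from 9546796, with a score of 80.5, and one of 5429 bp on X from 15605683, with a score of 79.8. The COH-1-only peaks with the highest scores lay on chromosome III from 13061942 to 13063693, with a score of 64.6, and on chromosome IV from 8793804 to 8799774 and from 2774457 to 2775013, with scores of 58.3 and 45.4. The widest COH-1-only peak spanned 11982 bp on chromosome IV from 8523873 to 8535854. The SCC-1 peak that met the most COH-1 peaks, 11, was 7527 bp wide and lay on chromosome I from 9783951 to 9791477.

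A few pairs matched almost base for base. On chromosome II the SCC-1 peak from 4858522 to 4859753 and the COH-1 peak from 4858523 to 4859765 had 99.03% of the longer peak in common. The other 4 of the closest 5 pairs lay on chromosomes III, IV and V, with 94.2% to 96.0% in common. The SCC-1 scores of the 5 pairs ran from 83.4 to 3161 and the COH-1 scores from 10.1 to 65.2. All 5 COH-1 scores lie above the upper quartile of that list, 7.96. Their widths, 688 to 1243 bp, also lie above its upper quartile of width, 514 bp. Of the 2821 COH-1 peaks in the highest score class, 2526 were wider than the list median. Picking pairs of like width thus favours high COH-1 scores.

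Runs of peaks of 1 list showed where the lists parted. The longest run of SCC-1-only peaks with no COH-1 peak between them held 31 peaks over 356.2 kb, on chromosome I from 13559336 to 13915537. There were 117 such runs of at least 10 peaks, and 2 of them lay on X, of which the one with 16 peaks ran from 142086 to 259093 near its left end. The longest run of COH-1-only peaks held 58 peaks over 173.0 kb on chromosome V, from 8648146 to 8821103. Of 229 COH-1-only runs of at least 10 peaks, 71 lay on X, where the longest held 47 peaks over 71.7 kb from 10588784 to 10660446. For comparison, X held 25.6% of all COH-1-only peaks and 5.17% of all SCC-1-only peaks. SCC-1 peaks, which would break a COH-1-only run, stood at 28.7 per Mb on X against 76.0 on the autosomes. Runs were not counted in shifted lists.

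Distances from unshared peaks to the other list are given without a shifted list beside them, so they are descriptions only. The median distance from an SCC-1-only peak to the nearest COH-1 peak, edge to edge, was 14.2 kb, and 160 of the 5050, or 3.17%, lay within 500 bp. From a nuclear COH-1-only peak to the nearest SCC-1 peak the median was 5.37 kb, being 4.52 kb on the autosomes and 10.6 kb on X, and 8.97% lay within 500 bp. The COH-1 list also held 3 peaks on mitochondrial DNA, which is not packed by nucleosomes, with scores of 25.7, 27.1 and 25.2 and widths of 6614, 3692 and 2172 bp. These scores lie above the upper quartile of the COH-1 list, 7.96. The SCC-1 list had no mitochondrial peak.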

How the data were processed

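The SCC-1 and COH-1 peak lists were used as the authors deposited them, with the start, end and score of each peak in WS220 positions. Per the file headers and records, SCC-1 peaks were called with MACS and COH-1 peaks with MACS v2. Per the submitters' processing notes for the SCC-1 samples, BWA and the build ce10 were used. Thresholds of the callers, and any role of the input DNA, were not stated there. The deposited scores have no named scale and were compared only within a list. Read depth is unknown.

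Overlap was computed on the 6 nuclear chromosomes, and the 3 mitochondrial COH-1 peaks counted as COH-1-only. A span ran from the first to the last base of the peaks of both lists. Circular shifts used fixed offsets of 1% to 99% of the span and are descriptions without a p-value, as peaks are not replicates. Peaks were placed in arms or centres by midpoint. Sites named were the 3 of highest printed score and the widest of each class, the longest runs, the windows with the highest and lowest shared percentage, the peaks meeting most others and the 5 closest pairs. Members, lists and rules were chosen with earlier results of these data known. No annotation of WS220 was used, so peaks were not assigned to genes and no sequence is shown. Functions were tested on simulated lists. Python 3.11.15, numpy 2.4.6, pandas 2.3.3, scipy 1.17.1 and matplotlib 3.10.9 were used.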

Additional observations from a re-analysis of the deposited data

How the results depend on the processing

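The share of SCC-1 peaks shared (25.5%), the share of COH-1 peaks shared (26.6%) and the factor over the circular shifts (1.77) moved with the rule as follows, in that order. With 50% of the shorter peak required they were 24.5%, 24.0% and 1.87. With 50% of both peaks required they were 4.76%, 2.86% and 2.81. With the midpoint inside the other peak they were 12.7%, 23.5% and 2.23. With a gap of up to 500 bp allowed they were 27.9%, 33.2% and 1.59. In the top 50% of each list by score they were 23.1%, 22.6% and 2.12, and with equal numbers of peaks 19.8%, 29.4% and 1.87. With peaks no more than 500 bp apart merged, the shares were 27.3% and 30.1%. Without X they were 23.6%, 30.3% and 1.65. With each peak set to 1 kb around its midpoint, an alternative chosen after seeing the data, they were 24.3%, 25.4% and 1.68. Overlapping 1 kb stretches were merged there, so these are shares of 6717 SCC-1 and 6709 COH-1 regions. The factor was 1.63 against offsets of 20 to 100 kb, also chosen after seeing the data, and 1.49, 1.64, 1.54, 1.99 and 3.10 on chromosomes I, II, III, V and X alone. It exceeded 1 under each alternative run.

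With 50% of both peaks required, X held 21.4% of shared SCC-1, 6.80% of SCC-1-only and 21.6% of COH-1-only peaks, and in the top 50% it held 10.5% of shared SCC-1 and 3.76% of SCC-1-only peaks. The arm to centre ratio on X was 1.65 for shared SCC-1 and 1.55 for SCC-1-only peaks with 50% of both required. For COH-1-only peaks on X it was 0.804 in the top 50%, 0.627 with arms of 20% and 0.969 with arms of 33% of the span. On the autosomes the ratio for SCC-1-only peaks was 0.806 with 50% of both required and 0.827 in the top 50%. For COH-1-only peaks there it was 0.399, 0.448, 0.457, 0.448 and 0.5002 with 50% of both, in the top 50%, with equal numbers, and with arms of 20% and 33%, and for shared SCC-1 peaks it was 0.493 with arms of 33%.

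Shared minus SCC-1-only medians of width and score were 360 bp and 546.8, and reversed to -180 bp and -225.3 with 50% of both required. With the midpoint rule they were -82 bp and -9.68. The intervals of these differences of medians, which are not binomial, ran from -142 to 10 bp and from -92.64 to 76.53. Each took in both signs, so the midpoint rule showed no clear difference in either direction. Without X the shared minus SCC-1-only medians were 503 bp and 784.1. For COH-1 the differences of 48 bp and 0.97 became 24 bp in width with the midpoint rule, and 656 bp and 8.30 with 50% of both required. The rule of 50% of both peaks admits only pairs of like width, and the list medians were 298 bp for COH-1 and 1219.5 bp for SCC-1. By construction it favours narrow SCC-1 peaks and wide COH-1 peaks. The midpoint rule gives a peak no advantage from its own width. How much of the changes this accounts for was not tested. No paired analysis was possible because the labels give 1 ChIP and 1 input library, and the COH-1 list has no replicate number. Without read counts, a missing peak in either list and low depth cannot be told apart.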
